A study of Mus musculus with 13 samples.

Results

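The transcripts followed here were the 3 transforming growth factor beta (TGF-beta) ligands *Tgfb1*, *Tgfb2* and *Tgfb3*, their receptor subunits *Tgfbr1* and *Tgfbr2*, the intracellular mediators *Smad3* and *Smad7*, and *Nrros*, the microglial protein that holds latent TGF-beta 1. The 8 genes were listed by symbol, with no threshold on their values but with earlier results of these data known. Each was found once among the 55401 gene identifiers of the deposited tables. All 8 passed the filter on low counts and were among the 14985 genes tested. They were measured by bulk RNA sequencing of frozen brain hemispheres of male mice that the labels give as 6-8 weeks old. The study's text gives a higher age than these labels, and that conflict was not resolved here. Control mice (CTL, 5 libraries) ate a control diet and were collected at week 6. Cuprizone mice (CPZ, 4 libraries) ate 0.3% cuprizone, a copper chelator that kills myelinating oligodendrocytes, for 4 weeks and were collected at week 4. Recovery mice (RCV, 4 libraries) had the same 4 weeks of cuprizone, then 2 weeks of control diet, and were collected at week 6. All groups were wild-type C57BL/6J mice by the study's methods, with no transgene. RCV was assigned from the treatment field, although the sample titles there start with Veh. The labels state 4 CTL, 3 CPZ and 3 RCV mice, fewer than the libraries of each group. The study's text counts as many bulk samples as there are libraries, and whether each library came from a mouse of its own is not stated. The p-values measure the spread between these libraries, part of which may be technical. CPZ brains were also collected 2 weeks earlier than the others, so diet and age cannot be told apart in comparisons with CPZ.

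TGF-beta ligands are secreted in a latent form, wrapped in their own propeptide, and are tethered to the matrix by latent TGF-beta binding proteins or to the cell surface by anchors such as NRROS and LRRC32. Integrins release the active ligand, which brings together the type II receptor TGFBR2 and the type I receptor TGFBR1. TGFBR1 then phosphorylates SMAD2 and SMAD3, which enter the nucleus with SMAD4, while SMAD7 is an inhibitory member that blocks the receptor. In the brain this pathway is known for maintaining the homeostatic state of microglia, which both make TGF-beta 1 and depend on it.

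The libraries held 4605100 to 8197289 counts, and 19980 to 21565 genes were detected in each. Mitochondrial genes took 3.76% to 5.07% of the counts. The neuronal markers summed to between 3141 and 4104 TPM (a transcript level per length, scaled to a fixed library sum) in every library, as a brain label implies. The microglial markers, 12 genes including *Csf1r*, *C1qa* and *Tmem119*, summed to 527-632 TPM in CTL, 2151-4690 in CPZ and 860-1270 in RCV, with no overlap between groups. Each of the 12 passed the test as higher in CPZ, and their log2 differences from CTL had a median of 2.53. The mature oligodendrocyte markers fell in 8 of 8 cases between CTL and CPZ, and 5 of 7 astrocyte markers rose. Of all tested genes, 7.66% passed the test as higher in CPZ and 2.50% as lower. In RCV edgeR called 0 of the 8 oligodendrocyte markers against CTL, beside only 0.374% of all tested genes. Their median log2 difference was 0.16. Blood monocyte markers (among them *Ly6c2*, *Ccr2*, *Plac8* and *Chil3*) and T cell markers never exceeded 8.44 counts in a library, and their summed level reached at most 5.60 and 6.20 TPM. In bulk tissue, fewer cells of a type cannot be told apart from less RNA per cell, and the same holds for more cells and more RNA. Of the 7 border macrophage markers 2 were tested and edgeR called none (none had an unadjusted p below 0.05), and their sum was 5.38 to 13.1 TPM.

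In CPZ, 4 of the 8 genes were higher than in CTL and none was called lower. These were *Tgfb1*, both receptor genes and *Nrros*, while *Tgfb2*, *Tgfb3*, *Smad3* and *Smad7* did not pass the test. A gene was called where the adjusted p of edgeR's quasi-likelihood test, corrected over all tested genes by the Benjamini-Hochberg method, was below 0.05. The background share was 10.2% of all tested genes called in either direction, 7.66% called higher and 2.50% called lower. The median log2 fold change of the 8 genes was 0.60, beside -0.020 over all tested genes. In RCV, none of the 8 differed from CTL by that test, beside a background of 0.374%. *Tgfb1*, *Tgfbr1* and *Tgfbr2* were also higher in CPZ than in RCV, 3 of 8 beside a background of 7.01%. The comparisons share libraries and are therefore not independent of each other. Because the 8 genes were chosen with earlier results of these data known, their shares beside the background are descriptions only.

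**Figure D1:**
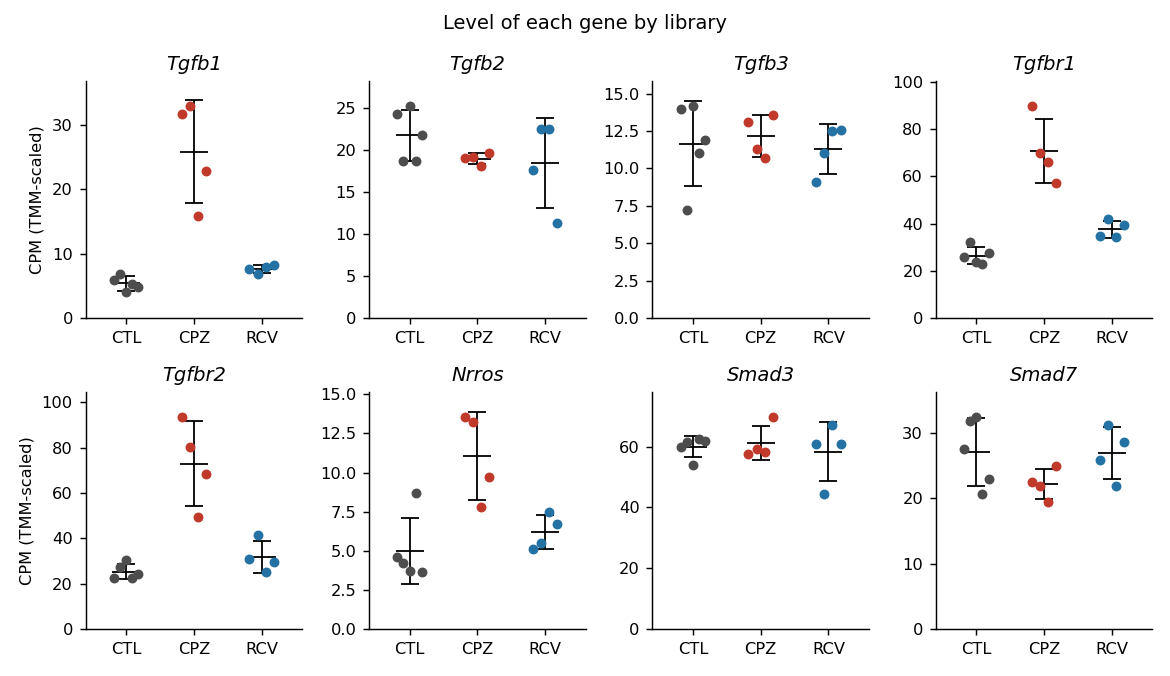
CPM (counts scaled by library size with TMM factors, linear axis from 0) of each gene, 1 point per library, for 5 CTL, 4 CPZ and 4 RCV libraries; bars are the mean and SD. *Tgfb1*, *Tgfbr1* and *Tgfbr2* sit higher in every CPZ library than in any other library, while *Nrros* in CTL replicate 4 (8.72 CPM) lies above the lowest CPZ library (7.77 CPM).

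The windows upstream of the 4 genes that rose together are shown first because these genes shared their direction in CPZ, and a reader may compare what the promoters share. Each is the 250 bases before the RefSeq start in build GRCm38.p6, printed 5' to 3' on the strand of the gene. Capitals mark GGGCGG, the core of the SP1 site, and GAGGAA, the core bound by PU.1, the lineage factor of microglia, on either strand.
*Tgfb1* (chr7:25686752-25687001, plus strand): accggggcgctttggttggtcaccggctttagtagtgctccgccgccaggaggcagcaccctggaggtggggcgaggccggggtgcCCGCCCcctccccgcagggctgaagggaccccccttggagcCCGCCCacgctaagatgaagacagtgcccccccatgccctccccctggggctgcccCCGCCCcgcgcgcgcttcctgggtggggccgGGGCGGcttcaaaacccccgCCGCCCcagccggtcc
*Tgfbr1* (chr4:47352972-47353221, plus strand): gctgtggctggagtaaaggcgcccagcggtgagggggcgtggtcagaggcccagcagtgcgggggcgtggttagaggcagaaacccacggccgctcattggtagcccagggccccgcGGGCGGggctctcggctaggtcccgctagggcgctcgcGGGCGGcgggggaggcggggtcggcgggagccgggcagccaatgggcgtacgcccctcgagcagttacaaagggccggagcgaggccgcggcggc
*Tgfbr2* (chr9:116175364-116175613, minus strand): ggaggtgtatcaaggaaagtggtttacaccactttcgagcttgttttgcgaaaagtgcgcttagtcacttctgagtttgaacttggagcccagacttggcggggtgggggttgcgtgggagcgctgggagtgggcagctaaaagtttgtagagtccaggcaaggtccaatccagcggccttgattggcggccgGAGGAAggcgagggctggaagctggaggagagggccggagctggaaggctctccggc
*Nrros* (chr16:32165595-32165844, minus strand): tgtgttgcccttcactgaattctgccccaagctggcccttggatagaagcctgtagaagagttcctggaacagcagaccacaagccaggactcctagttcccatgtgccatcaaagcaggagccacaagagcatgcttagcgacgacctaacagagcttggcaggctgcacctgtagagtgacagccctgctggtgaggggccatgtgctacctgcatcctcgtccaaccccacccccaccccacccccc

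The *Tgfb1* window held GGGCGG 5 times and that of *Tgfbr1* 2 times, while the windows of *Tgfbr2* and *Nrros* held none. GGGCGG was present in 32.7% of the 32851 promoters of the table in a window of the same length. GAGGAA occurred once upstream of *Tgfbr2*, 57 bases before the start, and not in the other 3, against 23.3% of all promoters. Neither the AP-1 site TGANTCA (6.75% of promoters) nor the SMAD palindrome GTCTAGAC (0.167%) occurred in any of the 4. So none of the 4 motifs searched was found in all 4 windows. Among the genes that did not pass the test, the *Smad3* window held 2 GGGCGG and the *Tgfb2* window 1 GAGGAA. GC content was 75.2% for *Tgfb1* and 74.8% for *Tgfbr1*, 58.4% for both *Tgfbr2* and *Nrros*, 69.2% for *Smad3* and 53.6% for *Tgfb2*, and the median of all promoters was 52.4%. *Tgfb3* and *Smad7* were not among the 6 of 8 genes matched to the promoter table.

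Among the ligands, *Tgfb1* rose in CPZ. *Tgfb1* (ENSMUSG00000002603.15, chr7:25687002-25705077, GRCm38) encodes the TGF-beta 1 that microglia themselves produce. It was at 5.98, 6.90, 4.00, 5.35 and 4.77 CPM in the CTL libraries, at 31.7, 32.8, 15.8 and 22.9 CPM in CPZ, and at 7.62, 6.80, 7.89 and 8.24 CPM in RCV. Every CPZ library exceeded every other library, as it did for 8.25% of all tested genes against CTL and for 8.26% against RCV, and CPZ replicates 1 and 2 stood highest. The rise over CTL was 4.75-fold (log2 2.25, SE 0.20, 95% interval 1.82 to 2.68, edgeR adjusted p = 2.08e-06). Against RCV, CPZ was 3.39-fold higher (log2 1.76, SE 0.21, edgeR adjusted p = 0.000294). RCV and CTL ranges overlapped, because the lowest RCV library lay below CTL replicate 2. That difference was 0.49 on the log2 scale with an interval of -0.0079 to 0.98 (edgeR adjusted p = 0.808). The counts behind these values were 26-46 in CTL, 114-270 in CPZ and 38-52 in RCV, so the interval for RCV against CTL is wide.

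*Tgfb2* (ENSMUSG00000039239.14, chr1:186622792-186705989, GRCm38) and *Tgfb3* (ENSMUSG00000021253.7, chr12:86056745-86079041, GRCm38) encode the other two isoforms, which bind the same receptor pair. *Tgfb2* was at 24.3, 18.8, 25.2, 18.7 and 21.8 CPM in CTL, at 19.0, 19.2, 18.2 and 19.6 CPM in CPZ, and at 17.6, 22.5, 22.5 and 11.3 CPM in RCV. The 3 groups overlapped, and the low value was RCV replicate 4, the shallowest library, in which the choroid plexus markers also summed to only 8.48 TPM (up to 204 TPM in CTL). RCV replicate 3, whose choroid plexus sum was also low at 13.5 TPM, had *Tgfb2* at 22.5 CPM. The part of that tissue in the *Tgfb2* level was not tested. The log2 difference between CPZ and CTL was -0.20 (interval -0.52 to 0.13, edgeR adjusted p = 0.535). *Tgfb3* ran from 7.20 to 14.1 CPM in CTL, from 10.7 to 13.6 in CPZ and from 9.09 to 12.6 in RCV, again with full overlap. Its log2 difference between CPZ and CTL was 0.060 (interval -0.30 to 0.42, edgeR adjusted p = 0.893). These intervals do not include a doubling or a halving, that is a log2 change of 1 in size. *Tgfb2* is overlapped by the antisense gene *Gm29491*, and *Tgfb3* by *Ttll5* on the opposite strand. Whether reads were counted by strand is not given in the sources used here, so reads from these partners may be included.

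The ligand mixture therefore differed between the groups. The summed TPM of the 3 ligands was 23.6 ± 2.00 (SD, n = 5) in CTL, 43.2 ± 9.49 (n = 4) in CPZ and 23.6 ± 3.11 (n = 4) in RCV. *Tgfb1* made up 23.0% ± 5.40 (SD, n = 5) of that sum in CTL, 58.9% ± 6.52 (n = 4) in CPZ and 33.5% ± 6.04 (n = 4) in RCV. The CTL libraries lay between 16.3% and 30.2%, those of CPZ between 50.7% and 65.5%, and those of RCV between 24.8% and 38.7%. CPZ did not overlap either other group. By an exact two-sided permutation test, adjusted over the 3 comparisons, CPZ exceeded CTL by 35.9 percentage points (p = 0.0159, adjusted p = 0.0429) and RCV by 25.4 points (p = 0.0286, adjusted p = 0.0429). These p-values are the smallest that 4 against 5 and 4 against 4 libraries can give. With any 1 library of the pair left out, CPZ against RCV was no longer called, nor was CPZ against CTL without any 1 CPZ library. RCV exceeded CTL by 10.5 points (exact permutation p = 0.0476, adjusted p = 0.0476), with overlap between the groups. On the CPM scale, which does not divide by transcript length, that difference was 6.51 points and was not called (exact permutation test, adjusted p = 0.0635). Nor was the TPM difference between RCV and CTL called with any 1 of their libraries left out (exact permutation test, adjusted p 0.0536 to 0.107). *Tgfb2* held the largest mean share in CTL, 46.3% ± 3.97, and 23.4% ± 3.24 in CPZ.

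**Figure D2:**
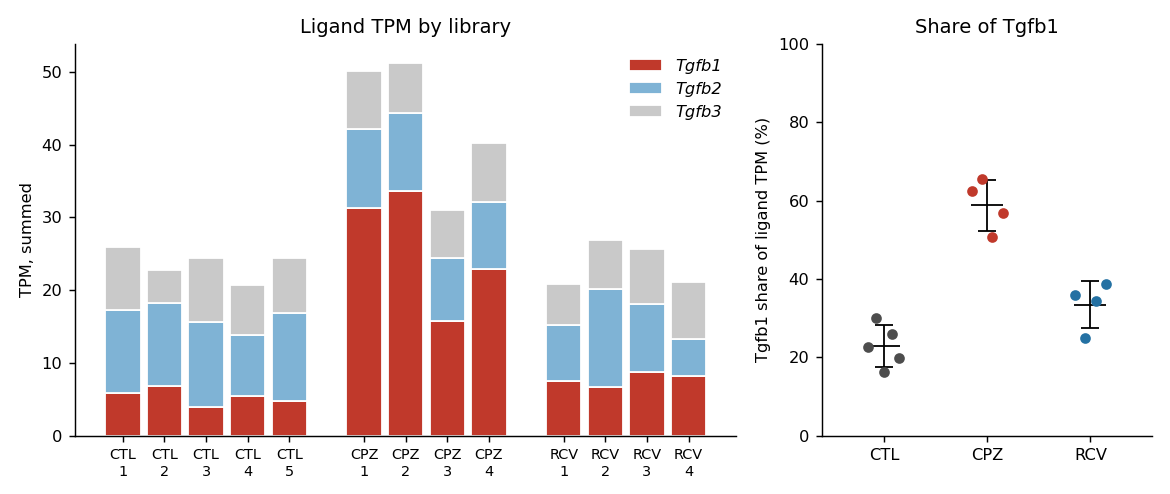
Left, stacked TPM of *Tgfb1*, *Tgfb2* and *Tgfb3* in each of the 13 libraries (linear axis from 0); right, the share of *Tgfb1* in that sum in percent, 1 point per library with the mean and SD of 5 CTL, 4 CPZ and 4 RCV libraries. The *Tgfb1* segment widens in CPZ, where its share is 50.7% to 65.5%, while in CPZ the other 2 segments stay within their CTL range.

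Both receptor genes rose in CPZ. *Tgfbr1* (ENSMUSG00000007613.15, chr4:47353222-47414931, GRCm38) encodes the type I kinase that phosphorylates SMAD2 and SMAD3. It was at 25.97, 32.1, 23.8, 23.1 and 27.7 CPM in CTL, at 89.6, 69.9, 66.2 and 57.3 CPM in CPZ, and at 34.7, 41.8, 34.3 and 39.5 CPM in RCV. All 3 groups were apart, in the order CTL, RCV, CPZ. CPZ was 2.66-fold above CTL (log2 1.41, SE 0.12, interval 1.15 to 1.68, edgeR adjusted p = 1.77e-06) and 1.88-fold above RCV (log2 0.91, SE 0.13, edgeR adjusted p = 0.000537). RCV was 1.42-fold above CTL (log2 0.50, SE 0.13, interval 0.22 to 0.78). That last difference had an unadjusted p of 0.00151 and an edgeR adjusted p of 0.169, and so was not called, while DESeq2 called it (adjusted p = 0.0483) and limma-voom did not. Of all tested genes, 2.21% had every RCV library above every CTL library, and 6.20% had an unadjusted p below 0.05. *Tgfbr1* was the only one of the 8 genes past either of these marks between RCV and CTL.

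*Tgfbr2* (ENSMUSG00000032440.13, chr9:116084293-116175360, GRCm38) encodes the type II receptor, which binds the ligand first. It was at 22.4, 27.3, 30.3, 22.5 and 24.2 CPM in CTL, at 93.5, 80.3, 49.5 and 68.3 CPM in CPZ, and at 30.9, 41.6, 25.0 and 29.7 CPM in RCV. All CPZ libraries lay above the rest, and RCV overlapped CTL. CPZ was 2.88-fold above CTL (log2 1.52, SE 0.18, interval 1.14 to 1.91, edgeR adjusted p = 5.52e-05) and 2.28-fold above RCV (log2 1.19, SE 0.19, edgeR adjusted p = 0.0018). The RCV difference from CTL was 0.34 on the log2 scale (interval -0.075 to 0.75, edgeR adjusted p = 0.885), and with 1 library left out it was between 0.18 (without RCV replicate 2) and 0.43 (without RCV replicate 3). The ratio of *Tgfbr1* to *Tgfbr2* in TPM was 1.06 ± 0.207 (SD, n = 5) in CTL, 1.01 ± 0.182 (n = 4) in CPZ and 1.21 ± 0.141 (n = 4) in RCV, with overlapping ranges. The mean levels of *Tgfbr1* and *Tgfbr2* per length were thus near-equal in CTL (10.7 and 10.04 TPM) and in CPZ (28.5 and 28.6 TPM). In RCV they were 14.6 and 12.4 TPM. The ratio in single libraries ran from 0.82 to 1.33 in CTL, from 0.87 to 1.27 in CPZ and from 1.04 to 1.38 in RCV.

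**Figure D3:**
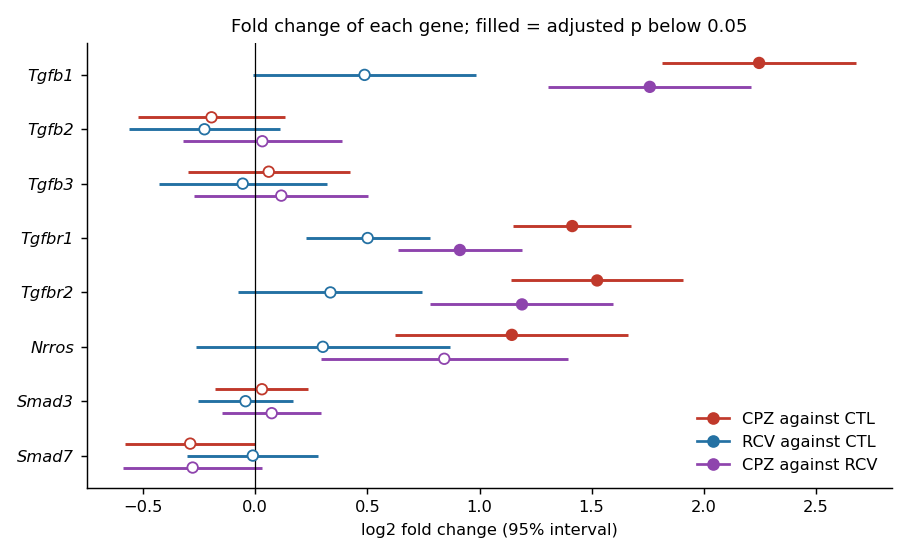
Log2 fold changes of the 8 genes in the 3 comparisons from edgeR, with 95% intervals; filled points passed an adjusted p of 0.05. The CPZ intervals of *Tgfb1*, *Tgfbr1*, *Tgfbr2* and *Nrros* against CTL lie above 0, and those of *Tgfb2*, *Tgfb3* and *Smad3* span it.

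*Nrros* (ENSMUSG00000052384.14, chr16:32142785-32165594, GRCm38), the anchor that holds latent TGF-beta 1 on microglia and macrophages, rose in CPZ with more spread. It was at 4.62, 4.20, 3.69, 8.72 and 3.67 CPM in CTL, at 13.5, 13.2, 7.77 and 9.68 CPM in CPZ, and at 5.13, 5.51, 7.51 and 6.72 CPM in RCV. The CTL and CPZ ranges overlapped only through CTL replicate 4. CPZ was 2.21-fold above CTL (log2 1.14, SE 0.24, interval 0.62 to 1.66, edgeR adjusted p = 0.00491), and without CTL replicate 4 the log2 difference was 1.44 (edgeR adjusted p = 0.000181). CPZ lay above RCV without overlap (log2 0.84, SE 0.26), but the edgeR adjusted p was 0.066. Every CPZ library was above every RCV library for 8.26% of all tested genes. The *Nrros* difference from RCV was called in 5 of the alternatives, among them DESeq2 (adjusted p = 0.0463) and the edgeR fit without CTL replicate 4 (adjusted p = 0.0145), and over all alternatives the adjusted p ran from 0.0145 to 0.258. The counts were 20-57 in CTL, 56-109 in CPZ and 31-39 in RCV.

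Neither SMAD transcript passed the test. *Smad3* (ENSMUSG00000032402.12, chr9:63646767-63757994, GRCm38), the main effector, was at 59.8, 61.7, 54.1, 62.7 and 62.0 CPM in CTL, at 57.6, 59.3, 58.4 and 69.7 CPM in CPZ, and at 61.0, 44.5, 67.0 and 60.9 CPM in RCV. The groups overlapped, and the log2 difference between CPZ and CTL was 0.030 with the narrowest interval of the 8 genes, -0.18 to 0.24 (edgeR adjusted p = 0.911). *Smad7* (ENSMUSG00000025880.11, chr18:75367529-75395935, GRCm38), the feedback inhibitor that TGF-beta signalling itself induces, was at 27.6, 31.8, 32.4, 20.6 and 22.9 CPM in CTL, at 22.5, 21.9, 19.4 and 24.9 CPM in CPZ, and at 25.8, 31.3, 21.9 and 28.6 CPM in RCV. The CPZ libraries lay in the lower part of the range, and the log2 difference from CTL was -0.29 (interval -0.58 to 8.62e-05, unadjusted p = 0.0501, edgeR adjusted p = 0.227). Against RCV it was -0.28 (interval -0.59 to 0.030, edgeR adjusted p = 0.32).

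Per transcript length, the order of the 8 genes differed between groups. In CTL *Smad3* led with 25.4 ± 1.502 TPM (SD, n = 5), followed by *Smad7* with 18.1 ± 6.37, and these ranges overlapped. *Tgfb2* (11.0 TPM), *Tgfbr1* (10.7) and *Tgfbr2* (10.04) came next and overlapped each other, and *Tgfb3* (7.28), *Tgfb1* (5.38) and *Nrros* (4.35) overlapped at the bottom. In CPZ, *Tgfbr2* (28.6 TPM), *Tgfbr1* (28.5), *Smad3* (26.1) and *Tgfb1* (25.9) had the highest means and overlapped each other, followed by *Smad7* (11.9), *Nrros* (11.0), *Tgfb2* (9.86) and *Tgfb3* (7.44). The *Nrros* range, 6.45 to 18.8 TPM, also overlapped that of *Tgfb1*, 15.7 to 33.6. *Smad7*, *Nrros* and *Tgfb2* overlapped as neighbours, and *Tgfb2* did not overlap *Tgfb3*. By group mean, *Tgfb1* thus stood near the bottom of the order in CTL and among the highest in CPZ. In RCV the order was *Smad3* (25.4 TPM), *Smad7* (15.8), *Tgfbr1* (14.6), *Tgfbr2* (12.4), *Tgfb2* (8.90), *Tgfb1* (7.79), *Tgfb3* (6.93) and *Nrros* (5.31), and every neighbouring pair overlapped. TPM divides by a transcript length estimated in each library, and the ratio of TPM to CPM varied between libraries by 1.86-fold for *Nrros*, 1.74-fold for *Smad7* and 1.46-fold for *Tgfb2*, but by at most 1.27-fold for the other 5.

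The 4 genes that rose in CPZ had RCV means between those of CTL and CPZ. As a share of the CPZ difference from CTL on the log2-CPM scale, the RCV libraries kept 0.230 ± 0.0526 (SD, n = 4) for *Tgfb1*, 0.359 ± 0.0997 for *Tgfbr1*, 0.209 ± 0.204 for *Tgfbr2* and 0.317 ± 0.211 for *Nrros*. The mean of the microglial markers kept 0.345 ± 0.0834. The shares overlapped between the genes, and *Tgfbr2* ran from -0.0055 in RCV replicate 3 to 0.48 in RCV replicate 2.

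The microglial markers moved with these genes. Within CPZ, summed marker TPM was 4690, 4073, 2151 and 2646 in replicates 1 to 4, and *Tgfb1*, *Tgfbr2* and *Nrros* were likewise highest in replicates 1 and 2, lower in replicate 4 and lowest in replicate 3, while *Tgfbr1* was lowest in replicate 4. The level of each gene relative to the markers was taken as its log2-CPM minus the mean log2-CPM of the 12 markers. For *Tgfb1* it was -2.13 ± 0.21 (SD, n = 5) in CTL, -2.24 ± 0.10 (n = 4) in CPZ and -2.41 ± 0.25 (n = 4) in RCV, and all 3 groups overlapped. For *Tgfbr1* it was 0.12 ± 0.12 in CTL, -0.75 ± 0.36 in CPZ and -0.16 ± 0.091 in RCV. For *Tgfbr2* it was 0.053 ± 0.21, -0.73 ± 0.14 and -0.42 ± 0.19 in the same order, and for *Nrros* -2.29 ± 0.50, -3.41 ± 0.12 and -2.71 ± 0.37. Relative to the markers, CPZ lay below CTL without overlap for 7 of the 8 genes, beside 95.7% of all tested genes, so that a level below CTL on this scale is not particular to them. The differences were -0.87 for *Tgfbr1*, -0.78 for *Tgfbr2* and -1.12 for *Nrros*, and from -2.18 to -2.54 for *Tgfb2*, *Tgfb3*, *Smad3* and *Smad7*. For *Tgfb1* it was -0.11 with overlap. The direction also depended on the marker. The markers' own log2 differences between CPZ and CTL ran from 0.97 for *P2ry12* and 1.18 for *Tmem119* to 3.46 for *Tyrobp*. *P2ry12* and *Tmem119* rose less than both receptor genes, whereas the other 10 markers rose more. For *Nrros* 11 of 12 markers rose more, and for *Tgfb1* 7 of 12. With the median of the markers in place of the mean, the *Tgfb1* difference was -0.46. These are descriptions, and how much of each rise came with the number of microglia or their RNA content was not tested.

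**Figure D4:**
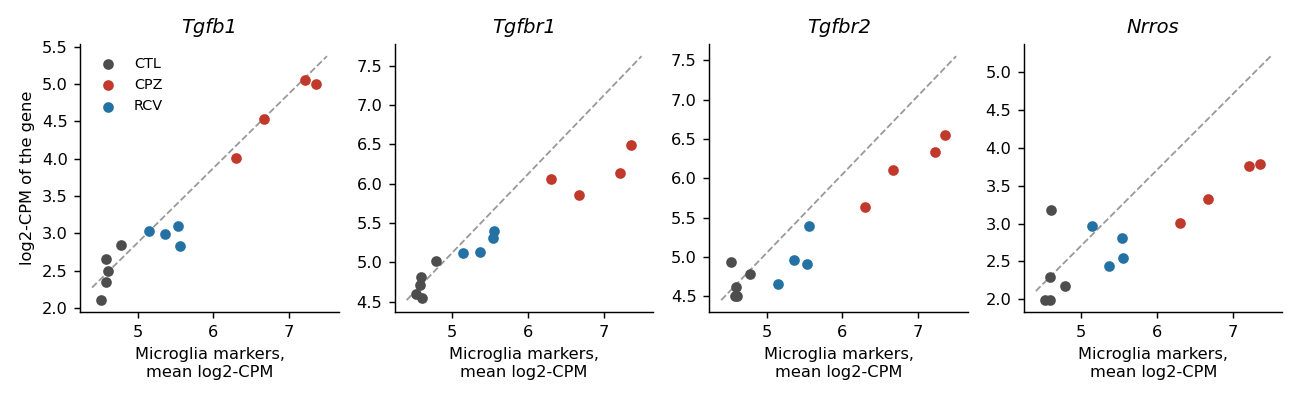
Log2-CPM of *Tgfb1*, *Tgfbr1*, *Tgfbr2* and *Nrros* against the mean log2-CPM of 12 microglial markers, 1 point per library (5 CTL, 4 CPZ, 4 RCV); the dashed line has a slope of 1 and passes through the CTL mean. The 4 of the 8 genes that rose in CPZ are shown. CPZ libraries lie near the line for *Tgfb1* (difference -0.11) and below it for *Tgfbr1* (-0.87), *Tgfbr2* (-0.78) and *Nrros* (-1.12), and the line rests on a mean of markers whose own log2 differences ran from 0.97 to 3.46.

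The genes whose pattern was most like each of the 8 were sought by Pearson correlation of log2-CPM over the 13 libraries, given as a description, since the libraries share groups and depth. *Tgfb1* was nearest to *Rasal3* (0.99), *Itgam* (0.99), the integrin alpha M chain of myeloid cells, and *Grn* (0.98), which encodes progranulin. *Tgfbr1* was nearest to *Abca1* (0.99), a cholesterol exporter, *Anxa3* (0.98) and *Ctsc* (0.98), and *Tgfbr2* to *Lgmn* (0.99), a lysosomal protease, *Itgb5* (0.99) and *Ctsh* (0.99). *Nrros* was nearest to *Slc1a3* (0.98), an astrocytic glutamate transporter, *Lcp2* (0.95) and *Rpl10a* (0.94). The highest value was 0.92 for *Tgfb2* (*Siah1b*, *Gm44126*, *Olfml1*), 0.84 for *Tgfb3* (*Trappc1*, *Gdf1*, *Gm14410*), 0.88 for *Smad3* (*Bdnf*, *Armc10*, *Tpm3-rs7*) and 0.90 for *Smad7* (*Mob3b*, *Carhsp1*, *Tmbim1*). With the group means removed, which leaves out what the groups share, the correlations with the same genes ran from 0.78 (*Tgfbr1* with *Ctsc*) to 0.97 (*Tgfb2* with *Siah1b*, and *Nrros* with *Slc1a3*). These genes were picked as the highest among all tested genes in the same 13 libraries. High values therefore follow in part from the pick, and those without group means are no separate check of the likeness.

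Around these genes, 92 further genes of the pathway were listed by role, and 84 were tested. These lists were also made with earlier results of these data known, so their shares beside the background are descriptions only. In CPZ against CTL 20 of the 84 rose and none was called lower, 23.8% beside the background of 10.2%. The 12 genes known to depend on TGF-beta in microglia supplied 12 of the 20, and without them 8 of 72 were called, 11.1%, which is near the background. In RCV against CTL edgeR called none of the 84, beside a background of 0.374%, while DESeq2 called 1 and limma-voom none. An unadjusted p below 0.05 was seen for 10 of the 84, beside 6.20% of all tested genes. In CPZ against RCV 17 were higher and 2 lower, beside 5.13% and 1.88% of all tested genes, and without the microglial genes 8 of 72 were called, 11.1% beside 7.01%.

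**Figure D5:**
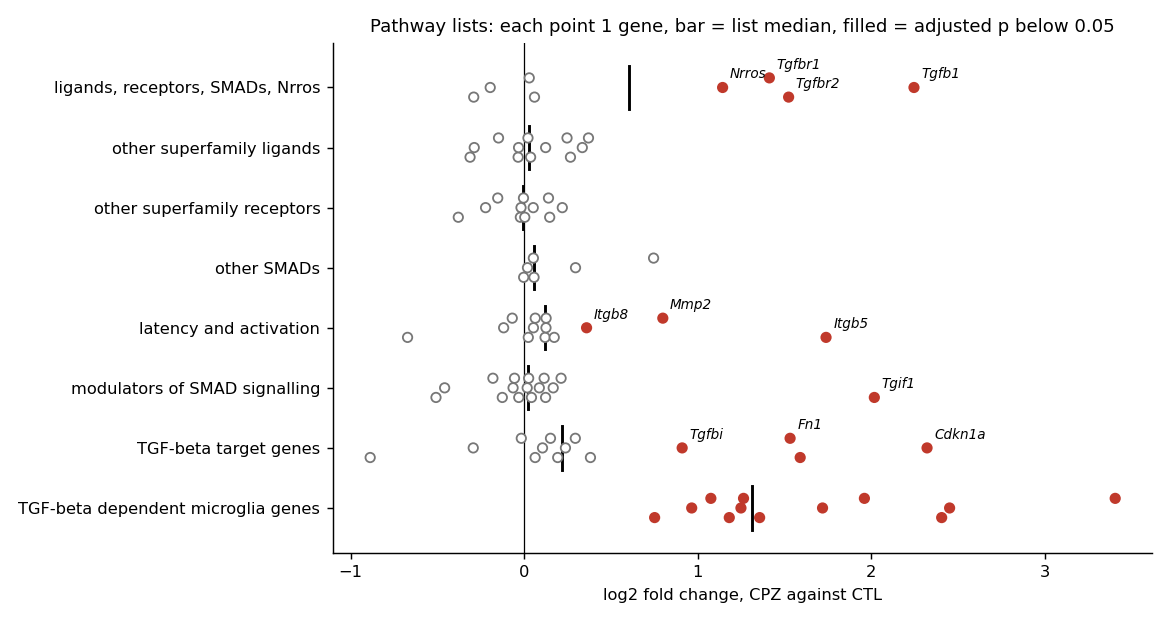
Log2 fold change in CPZ against CTL of each tested gene of 8 lists, 1 point per gene; vertical bars are list medians and filled points passed an adjusted p of 0.05 (edgeR). All 12 TGF-beta dependent microglia genes are filled, at 0.75 to 3.41, while no gene of the other ligands, receptors and SMADs is. Of all tested genes, 10.2% passed, so no filled point in lists this short is near that share.

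None of the 12 tested activin, BMP and GDF ligands was called by edgeR in any comparison, and none had an unadjusted p below 0.05, which 22.1% of all tested genes had in CPZ against CTL and 19.1% in CPZ against RCV. The most abundant, *Inha* (28.4 ± 6.09 TPM, SD, n = 5 in CTL), an inhibin subunit, and *Gdf11* (13.8 TPM in CTL) differed between CPZ and CTL by -0.29 and -0.15 on the log2 scale (edgeR adjusted p = 0.341 and 0.607). *Gdf15*, a stress-induced member of the superfamily, was below the filter and is given as counts. It had 0, 0, 1, 0 and 0 counts in CTL, 14, 20, 18 and 4 in CPZ, and 0, 0, 1 and 0 in RCV. Every CPZ library was above every other, and without the filter it was called against CTL (edgeR adjusted p = 8.38e-06) and against RCV (adjusted p = 0.000245). Of the 11 other receptors, none was called between CPZ and CTL (1 had an unadjusted p below 0.05), and *Acvr2b*, an activin type II receptor, was lower in CPZ than in RCV (log2 -0.48, edgeR adjusted p = 0.04). Of the 6 other SMADs, none was called between CPZ and CTL (2 had an unadjusted p below 0.05), and *Smad5*, which transmits BMP signals, was higher in CPZ than in RCV (log2 0.34, edgeR adjusted p = 0.0463). Both of these calls were lost under 14 of 23 alternatives, with adjusted p up to 0.389 for *Acvr2b* and 0.266 for *Smad5*. Of all tested genes, 10.2% were called between CPZ and CTL and 7.01% between CPZ and RCV. In lists as short as these, 0 or 1 call cannot be told apart from those shares.

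Among the 13 tested genes of latency and activation, 3 rose in CPZ over CTL, 23.1% beside 7.66% of all tested genes called higher. *Itgb5*, the integrin beta 5 chain that pairs with alpha V to release latent TGF-beta, was at 41.2 ± 3.57 CPM (SD, n = 5) in CTL, 138 ± 32.8 (n = 4) in CPZ and 58.5 ± 10.1 (n = 4) in RCV (log2 1.74 for CPZ against CTL, edgeR adjusted p = 4.55e-06). *Itgb8*, the beta chain of another activating integrin, rose by 0.36 (adjusted p = 0.00513, lost under 3 of 23 alternatives, all of them fits on TPM, adjusted p up to 0.152), and *Mmp2*, a matrix protease, by 0.80 (adjusted p = 0.0459, lost under 12 of 23 alternatives, adjusted p up to 0.172). Of the 16 modulators of SMAD signalling only *Tgif1* was called in CPZ against CTL, 6.25% beside 10.2% of all tested genes. *Tgif1*, a nuclear repressor of SMAD2 and SMAD3, was at 2.06 ± 0.523 CPM in CTL and 8.41 ± 2.91 in CPZ (log2 2.02, edgeR adjusted p = 5.14e-05).

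Of the 14 tested target genes, 4 rose in CPZ over CTL, 28.6% beside 7.66% of all tested genes called higher. *Cdkn1a*, which encodes the cell cycle inhibitor p21 and is induced by many stresses besides TGF-beta, was at 8.79 ± 1.93 CPM in CTL, 44.4 ± 7.62 in CPZ and 6.99 ± 1.39 in RCV (log2 2.32, edgeR adjusted p = 2.38e-07). *Fn1*, fibronectin, rose by 1.53 (adjusted p = 0.000887) and *Tgfbi*, a matrix protein, by 0.91 (adjusted p = 0.0382, lost under 10 of 23 alternatives, adjusted p up to 0.243). *Col1a1* was lower in CPZ than in RCV (log2 -1.89, edgeR adjusted p = 0.0396), a call lost under 17 of 23 alternatives (adjusted p up to 0.212), and RCV ranged from 34 to 248 counts. *Timp1*, below the filter, had 0-4 counts in CTL, 9-17 in CPZ and 1-5 in RCV. The list median was 0.22, beside -0.020 over all tested genes.

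All 12 TGF-beta dependent microglia genes rose in CPZ over CTL, beside 7.66% of all tested genes called higher, with a median log2 fold change of 1.31. The range ran from *Sall1* (0.75, edgeR adjusted p = 6.62e-05), a transcription factor of microglial identity, to *Fcrls* (3.41, adjusted p = 4.78e-06). Others between them were *P2ry12* (0.97), *Slc2a5* (1.08), *Tmem119* (1.18), *Siglech* (1.25), *P2ry13* (1.26), *Selplg* (1.36), *Cx3cr1* (1.72), *Gpr34* (1.96) and *Olfml3* (2.45). The *Slc2a5* call was lost under 5 of 23 alternatives, among them the fit without CPZ replicate 2 (adjusted p up to 0.183). The microglial marker list, which shares *P2ry12*, *Tmem119* and *Cx3cr1*, among others, with it, had a median of 2.53. In RCV the list median was 0.31 over CTL and none was called by edgeR. An unadjusted p below 0.05 was seen for 3 of the 12, beside 6.20% of all tested genes. In CPZ against RCV 11 of 12 were higher, 91.7% beside 5.13% of all tested genes, with *Slc2a5* not called (log2 0.83, edgeR adjusted p = 0.112).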

How the data were processed

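Bulk RNA was sequenced as paired 50-bp reads from 13 brain libraries prepared with the Kapa mRNA HyperPrep kit. The submitters' processing notes name STAR, RSEM and mm10, without versions. The deposited tables hold estimated counts, made by the authors with RSEM and not normalized, and TPM, which the authors scaled per transcript length to a fixed sum in each library. Gene names came from the deposited annotation, whose identifiers matched GENCODE M21 (GRCm38) in 98.1% of cases and for all 8 genes. Of the estimated counts 4.45% were not whole, and they were rounded. The 92 spike-in identifiers had 0 counts.

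Genes were filtered with filterByExpr by group, scaled by TMM and fitted with edgeR 4.0.16 (R 4.3.3) as 1 mean per group over all 13 libraries, using the robust quasi-likelihood F test. The study names the RNASequest pipeline for its bulk data, and the test it ran there is not given in the sources used here. CPM are TMM-scaled, and log2-CPM used a prior count of 2. Ligand shares were compared with exact permutation tests (scipy 1.17.1). Depth was 4605100 to 8197289 counts, so low counts limit precision for *Tgfb1* and *Nrros*, and all errors given describe the spread between libraries. No 2 libraries of a group agreed within counting error (chi-square per gene 4.49 to 17.8, against 1 for counting error alone, 22 pairs). The alternatives were DESeq2 1.42.0, limma-voom (limma 3.58.1), limma on log2(TPM + pseudocount), other size factors, other filters, the 2 groups alone, a replicate block and leaving out each library. The fit was tested on simulated data.

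The 8 genes and all gene lists were chosen with earlier results of these data known. Genes named in the text were the 8, every listed pathway gene called in at least 1 comparison (for a list with none, its 2 of highest TPM), and the 3 genes most correlated with each of the 8. *Gdf15* and *Timp1*, below the filter, were named after their values were seen. Values of some listed genes are not reported here. Promoter sequences came from RefSeq (GRCm38.p6).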

Additional observations from a re-analysis of the deposited data

Results flagged for a closer look

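In 57 groups of 4 or 5 libraries, 4 held a library far from the rest, judged by its gap to the nearest library as a share of the whole range (Dixon's criterion), and chance flags about 1 in 20 groups. *Smad3* stood at 69.7 CPM in CPZ replicate 4, where the other CPZ libraries lay between 57.6 and 59.3 CPM. *Nrros* stood at 8.72 CPM in CTL replicate 4, where the other CTL libraries lay between 3.67 and 4.62 CPM. Relative to the microglial markers, *Tgfbr2* stood at 0.41 in CTL replicate 3, with the others between -0.097 and 0.027. On that scale *Nrros* in CTL replicate 4 stood at -1.43, with the others between -2.61 and -2.28.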

How the results depend on the processing

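Of 552 log2 fold changes of the 8 genes recomputed under an alternative, 533 kept their direction and their side of the threshold, 6 passed it that had not, 0 fell short that had passed, and 13 changed sign. The count called in CPZ against CTL was 4 under every alternative. The main fit called 10.2% of all tested genes there. In RCV against CTL the count was 1 with DESeq2 (*Tgfbr1*) and 0 otherwise. Among the other pathway genes, RCV against CTL gave 1 with DESeq2 and 3 with only the 2 groups compared. Over all tested genes, DESeq2 called 131 in that comparison and the fit of only the 2 groups 82, beside 56 in the main fit. The signs that changed were of uncalled differences with 1 library left out. Over those fits *Smad3* ran from -0.038 to 0.065 in CPZ against CTL, from -0.12 to 0.068 in RCV against CTL and from -0.039 to 0.15 in CPZ against RCV. *Tgfb3* ran from -0.073 to 0.14 in CPZ against CTL and from -0.19 to 0.042 in RCV against CTL, *Smad7* from -0.095 to 0.072 in RCV against CTL, and *Tgfb2* from -0.12 to 0.14 in CPZ against RCV.

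The *Tgfb1* share of ligand TPM, with 1 library left out, exceeded CTL in CPZ by 33.7 to 38.6 points and in RCV by 8.76 to 13.4 points, and CPZ exceeded RCV by 22.5 to 28.1 points. The adjusted p then reached 0.0571, 0.107 and 0.0857. RCV against CTL and CPZ against RCV passed 0.05 in none of these fits, and CPZ against CTL did not pass where a CPZ library was left out. CPZ overlapped neither other group in these fits, so its unadjusted p was the smallest that the fewer libraries allow, and for RCV against CTL the cause was not tested. The RCV difference was 6.51 points from CPM. Relative to the median rather than the mean of the microglial markers, the difference from CTL was -0.46 for *Tgfb1* and -1.13 for *Tgfbr2* in CPZ, and -0.58 for *Tgfb1*, -0.57 for *Tgfbr1*, -0.76 for *Tgfbr2* and -1.07 for *Smad7* in RCV.

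Same-numbered libraries deviated from their group means with correlations of -0.20 to 0.14 over 12 pairs (0.26 at most for other pairs). By this measure they were no more alike than other pairs, which cannot exclude a shared processing step. With the replicate block 4, 0 and 3 of the 8 genes, and 19, 0 and 16 of the other pathway genes, were called in the 3 comparisons. The share of all tested genes called under that fit is not reported here. In the main fit it was 10.2%, 0.374% and 7.01%.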
